A study of Mus musculus with 32 samples.

Results

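RNA was compared between mouse embryos at the 4-cell stage (4C) and at the 2-cell stage (2C), both cultured with the vehicle DMSO. The 4 libraries, 2 of 4C embryos and 2 of 2C embryos, were chosen by their titles and labels from the 32 libraries of a study of growing oocytes, mature oocytes, early embryos and embryonic stem cells. Per the labels, all 4 libraries hold wild-type (WT) embryos from females aged 6 to 8 weeks, their titles name in vitro fertilization (IVF), and the study's design text places the culture in KSOM, a medium for mouse embryos. They differ by stage alone in the labels. Mature oocytes arrested at metaphase II (MII), untreated and from WT females aged 8 weeks or 12 months, and untreated 2C embryos from females aged 12 months entered the same statistical fit, and 4C and 2C embryos treated with aphidicolin, cycloheximide or MG132, inhibitors of DNA replication, translation and the proteasome, are used for ranges of shares. Neither the number of embryos in a library nor the hours in culture are given in the sources used here. No label ties a library to embryos, a culture or a day of its own. The p-values below speak of the spread between libraries, estimated over the 10 libraries of the fit, and part of that spread may be technical. Reads were counted for 55335 genes and 1153 subfamilies of repeated sequence, and the 4C libraries held 32925454 and 29079599 counts, against 28566215 and 27332143 in the 2C libraries.

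The mouse embryo starts with RNA that the oocyte made and stored. Transcription of its own genome begins weakly in the 1-cell embryo and strongly in the 2-cell embryo, where a burst of short-lived transcripts, many of them driven by the long terminal repeats (LTRs) of the endogenous retrovirus MERVL, accompanies the start. Stored maternal transcripts are meanwhile shortened at their poly(A) tails and broken down. By the 4-cell stage the embryo relies on its own transcription, cells are still alike in shape, and compaction and the split into trophectoderm and inner cell mass lie ahead.

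The marker genes of the stages were compared first. Levels are given in CPM, read counts scaled to library sizes normalised by TMM, the trimmed mean of M-values. Of 14 marker genes, 13 passed the low-count filter, 4 were higher in 4C embryos (Zp3, Dppa5a, Tead4 and Nanog) and 8 were lower (Mos, H1foo, Zp2, Gdf9, Zscan4c, Zscan4d, Zfp352 and Usp17la). Dppa5a, a gene of pluripotent cells, had 4171 and 4856 CPM in 4C embryos, against 32.9 and 83.0 CPM in 2C embryos, a log2 fold change (4C over 2C) of 6.28 ± 0.55 (standard error, SE). The 2-cell-stage gene Zscan4d had 8.65 and 2.89 CPM in 4C embryos, against 169 and 335 CPM in 2C embryos. Oocyte-type linker histone H1foo had 3.87 and 3.51 CPM in 4C embryos, against 291 and 311 CPM in 2C embryos. The 4C and 2C libraries did not overlap for these 3 genes, nor for 17677 of all 22954 genes tested, so lack of overlap is common here and below. Zp3, a zona pellucida gene of the oocyte, ran against its use as an oocyte marker, at 30.2 and 36.2 CPM in 4C embryos, against 11.2 and 11.4 CPM in 2C embryos. Krt18, a keratin of later epithelium, was not called (0 and 1.18 CPM in 4C embryos, against 3.66 and 2.32 CPM in 2C embryos), and Cdx2, the trophectoderm regulator, did not pass the filter. Markers of other cells were low: 11 of 20 cumulus and granulosa markers, 7 of 16 sperm markers and 4 of 18 fibroblast, blood and oviduct markers had 0 counts in both 4C libraries, against 4, 2 and 2 in the 2C libraries. The granulosa markers Amh, Inha and Pgr were at 0 in all 4 libraries. Summed, the cumulus and granulosa markers took 0.0415% and 0.0416% of gene counts in 4C embryos, against 0.00852% and 0.00609% in 2C embryos, and of the 17 tested, 1 was higher in 4C embryos and 3 were lower (Fshr, Cyp19a1 and Lhcgr). The higher one was the gap-junction gene Gja1 (335 and 310.3 CPM in 4C, against 29.8 and 20.7 CPM in 2C), which embryos also express and which lost its call when any 1 of the 4 libraries was left out. Of 11 sperm markers tested, 2 were higher (Ldhc and Tsga8) and 5 lower, and of 15 fibroblast, blood and oviduct markers, Ovgp1 was higher and Lyz2 lower. The part of such cells in the results was not tested.

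The difference between the stages was wide. edgeR's quasi-likelihood F-test, fitted over 10 libraries of 5 groups with Benjamini-Hochberg adjustment over all genes, called 11237 of 22954 tested genes at an adjusted p under 0.05, which is 49% of them. Higher in 4C embryos were 4498 genes (19.6% of those tested) and lower were 6739 (29.4%); these are the background shares against which the members of each gene list below are read. A difference of at least 16-fold was reached by 1853 of the genes called higher and by 3997 of those called lower. Leaving out any 1 of the 4 libraries kept the call of 7387 genes, 2630 higher and 4757 lower. Across 8935 genes with at least 5 CPM on average, replicates correlated at Pearson's r = 0.973 (4C) and 0.941 (2C) on the log2(CPM + 1) scale, and 4C with 2C libraries at 0.0936 to 0.124. These correlations are across genes, which are not independent replicates. The median gene had a log2 fold change of -0.57, beside which the fold changes below can be set. Calls and directions are against 0, with no re-centring on that value. The median depended on single libraries, at -0.14 without 2C replicate 1, -0.34 without 2C replicate 2, -0.91 without 4C replicate 1 and -0.81 without 4C replicate 2. In these bulk libraries, fewer cells with a transcript and less RNA per cell cannot be told apart.

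**Figure D1:**
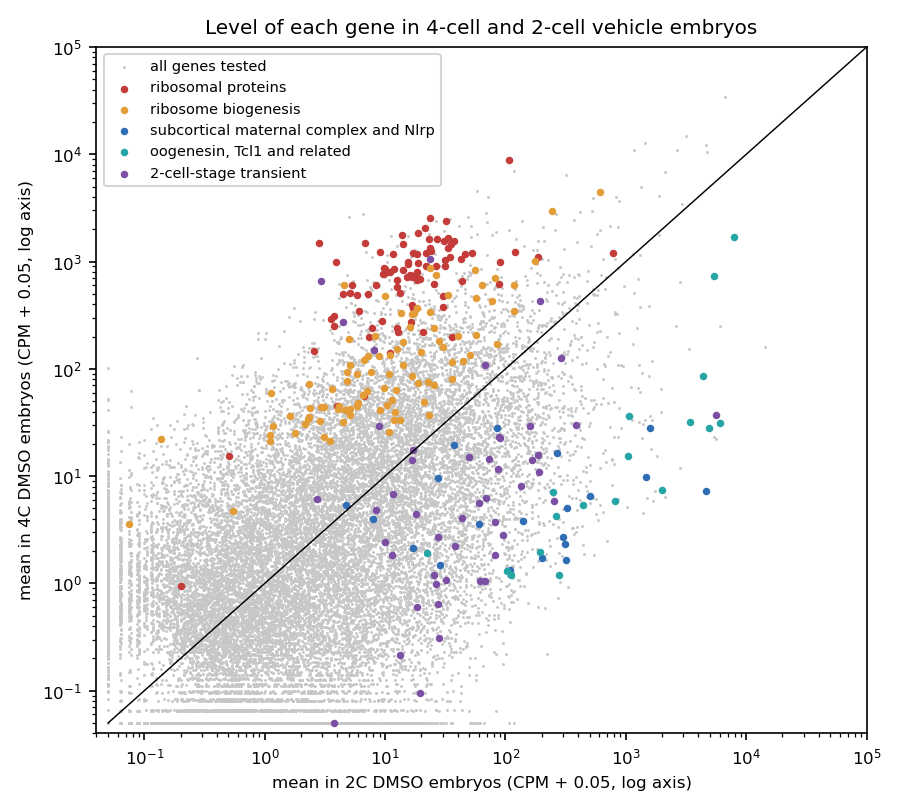
Mean level of each tested gene in 4C embryos (vertical) and 2C embryos (horizontal), in CPM plus 0.05 on log axes, with 5 gene lists coloured and the line of equal levels drawn. Ribosomal proteins and ribosome biogenesis genes lie above the line, the oogenesin and Tcl1 genes below it, and most genes of the subcortical maternal complex and Nlrp list and of the 2-cell stage below it.

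The 4C libraries also differed from the 2C libraries in the share of counts on short genes. Protein-coding genes with fewer than 700 exonic bases, ribosomal and mitochondrial-genome genes left out, took 2.51% and 2.51% of the remaining protein-coding counts in the 4C libraries, against 1.03% and 1.17% in the 2C libraries. The same share was 1.84% to 2.77% in 6 further 4C libraries with other treatments and 0.489% to 1.20% in 8 further 2C libraries, of other treatments or of older females, so that every 4C library of the study lay above every 2C library. Among protein-coding genes of 6000 exonic bases or more, 37.3% were called lower and 17.9% higher, against 23.8% lower and 30.7% higher among those of 700 to under 1200 bases, 25.8% lower and 24.2% higher among those under 700 bases (26.8% and 21.4% without ribosomal and mitochondrial-genome genes) and 30.8% lower and 22% higher among all protein-coding genes. Whether the 4C and the 2C libraries were prepared together is not given in the sources used here, and stage and preparation cannot be told apart. The part of gene length in the results below was not tested.

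**Figure D2:**
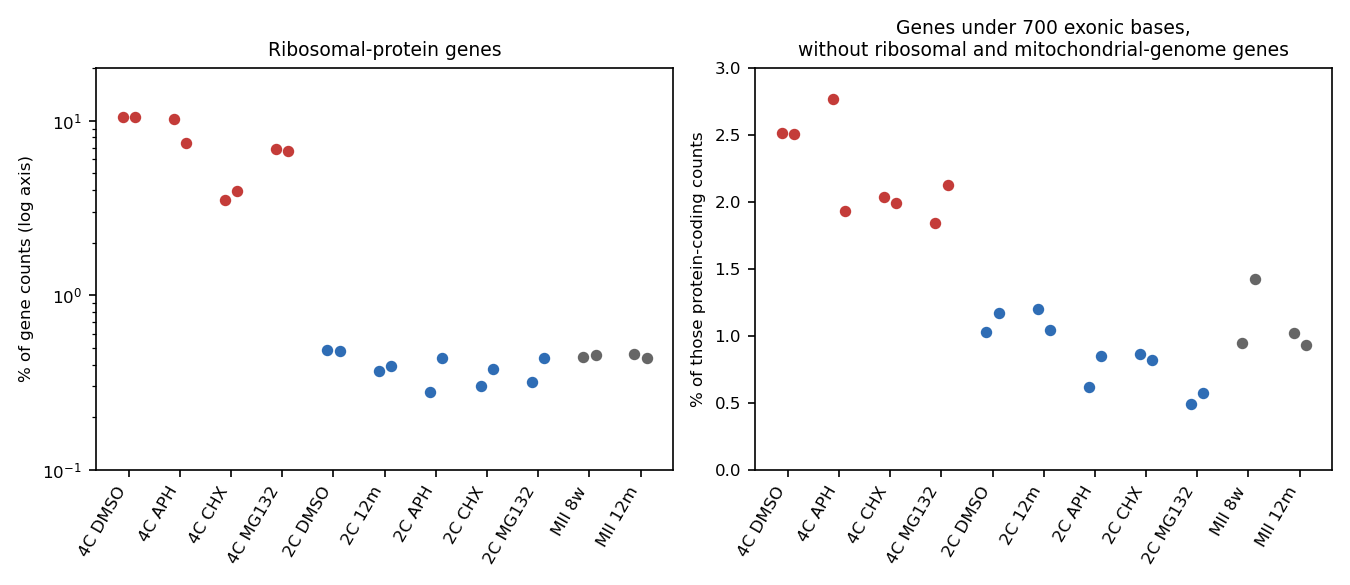
Share of gene counts in ribosomal-protein genes (left, log axis) and share of counts in short protein-coding genes (right) in each of the 22 embryo and MII oocyte libraries, 2 points per group (APH, aphidicolin; CHX, cycloheximide; 12m and 8w, age of the females). The 4C groups (red) lie above the 2C groups (blue) and the MII oocytes (grey) in both panels, whatever the treatment.

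Among the largest changes were genes with counts at one stage and 0 counts at the other. Klhl10 (chr11:100441917-100457022 in mm10), a germ-cell adaptor of ubiquitin ligases, had 63.8 and 141 CPM in 4C embryos and 0 counts in both 2C libraries, at least 2567-fold higher. The zymogen-granule gene Sycn (46.6 and 57.9 CPM in 4C embryos) and the synaptic-vesicle gene Syngr1 (53.03 and 50.4 CPM) were likewise at 0 counts in 2C embryos, at least 1326-fold and 1320-fold higher. Such bounds take 3 counts for a group in which no library had any, and allow for counting error alone. Ocm, a calcium-binding protein, had 147 and 108 CPM in 4C embryos, against 0.150 and 0.300 CPM in 2C embryos. Lst1, a small gene of the immune system, had 62.5 and 61.3 CPM in 4C embryos, against 0 and 0.0546 CPM in 2C embryos. Both 4C libraries stood above both 2C libraries for all 5, as the rule that named them required.

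In the other direction, 4 of the 6 largest decreases were genes at 0 counts in both 4C libraries. Izumo1r (chr9:14885814-14903949), the egg's receptor for the sperm protein Izumo1, had 0 counts in 4C embryos, against 40.8 and 81.6 CPM in 2C embryos, at least 1282-fold lower in 4C embryos. The calcium sensor Ncald (0 counts in 4C embryos, against 47.4 and 58.7 CPM in 2C embryos) was at least 1122-fold lower. The sterol enzyme Nsdhl (0 counts in 4C embryos, against 32.1 and 70.3 CPM in 2C embryos) was at least 1071-fold lower, and Stard13 (0 counts in 4C embryos, against 60.3 and 41.1 CPM in 2C embryos) at least 1087-fold lower. Nudt7, a peroxisomal hydrolase of coenzyme A, had 0.0300 and 0 CPM in 4C embryos, against 64.5 and 101 CPM in 2C embryos. Taf9b, a subunit of transcription complexes, had 0.210 and 0.131 CPM in 4C embryos, against 208 and 231 CPM in 2C embryos, a log2 fold change of -10.28 ± 0.37 (SE). All 6 were present in MII oocytes from females aged 8 weeks, at means of 16.9 CPM (Nsdhl) to 615 CPM (Nudt7) over 2 libraries.

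By the number of counts rather than by fold, the decrease was led by maternal transcripts. Spin1, a chromatin reader of the oocyte, had 166 and 155 CPM in 4C embryos, against 15834 and 12531 CPM in 2C embryos. Btg4, the adaptor that brings deadenylase to maternal mRNA, had 22.9 and 21.1 CPM in 4C embryos, against 5080.1 and 6049 CPM in 2C embryos. Tcl1, a co-activator of Akt, had 30.4 and 32.4 CPM in 4C embryos, against 6804 and 5291 CPM in 2C embryos. In MII oocytes Spin1 averaged 14754 CPM, Btg4 9627 CPM and Tcl1 8215 CPM. Mphosph6, a cofactor of the RNA exosome, had 254 and 246 CPM in 4C embryos, against 5122 and 6985 CPM in 2C embryos, the homeobox gene Obox5 had 40.5 and 34.5 CPM in 4C embryos, against 4675 and 6439 CPM in 2C embryos, and the ovary-specific Omt2b had 1423 and 1996 CPM in 4C embryos, against 7005 and 8668 CPM in 2C embryos. The increase in counts was led by mitochondrial transcripts, given below, and by the ribosomal protein Rpl41 (10144 and 7644 CPM in 4C, against 125 and 89.6 CPM in 2C).

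**Figure D3:**
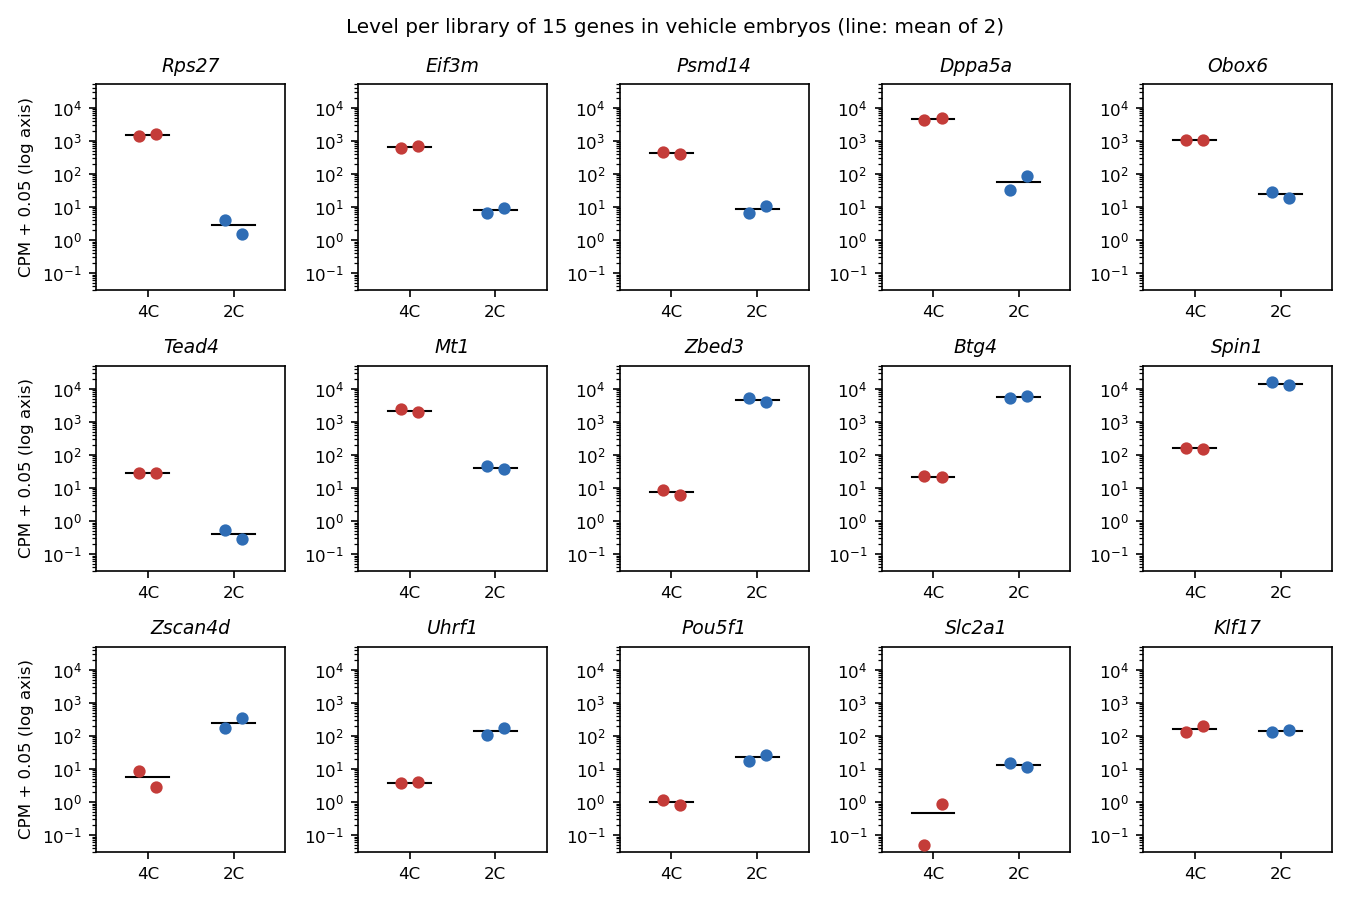
Level of 15 genes in each library, 4C embryos (red) left of 2C embryos (blue), in CPM plus 0.05 on a log axis, with the mean of the 2 libraries as a line. The groups do not overlap for 14 genes, while for Klf17 the 4C values (134 and 193 CPM) and the 2C values (134 and 152 CPM) overlap. Over all 22954 genes tested, 17677 show no overlap.

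Ribosomal proteins, the structural parts of the ribosome, rose almost without exception. Of 87 tested genes, 85 were higher (97.7%, against 19.6% of all genes) and 0 lower, all 85 were still called after leaving out each library in turn, and the median log2 fold change was 5.58. The list was taken by name, so that it holds Rps6kl1, a kinase-like gene with 0.991 and 0.821 CPM in 4C embryos, against 0.300 and 0 CPM in 2C embryos, which was not called. The other uncalled member, Rps27l, a paralog of Rps27, had 1198 and 1193 CPM in 4C embryos, against 678 and 900.5 CPM in 2C embryos. Rps27 (chr3:90212522-90213651), of the small subunit, had 1413 and 1594 CPM in 4C embryos, against 4.08 and 1.503 CPM in 2C embryos, a log2 fold change of 9.07 ± 1.16 (SE, edgeR adjusted p = 0.000132). Rpl38, of the large subunit, had 979 and 996 CPM in 4C embryos, against 3.61 and 4.13 CPM in 2C embryos (8.00 ± 0.53). No 2C library came near a 4C library for either gene, and in MII oocytes Rps27 averaged 4.70 CPM and Rpl38 5.13 CPM. Together the list took 10.5% and 10.5% of gene counts in 4C libraries, against 0.481% and 0.481% in 2C libraries. In the further 4C libraries it took 3.52% to 10.1%, and in the further 2C libraries 0.278% to 0.437%. Ribosomal proteins have many processed pseudogenes, and how reads with several positions were counted is not given in the sources used here, so the level of a single member is uncertain.

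Genes that build ribosomes rose with them: 90 of 92 tested members were higher (97.8%) and 0 lower, with a median of 3.24. Ddx49, an RNA helicase, had 17.8 and 26.6 CPM in 4C embryos, against 0.175 and 0 CPM in 2C embryos. Rpf2, which brings the 5S particle to the large subunit, had 576 and 633 CPM in 4C embryos, against 4.46 and 4.64 CPM in 2C embryos (7.05 ± 0.50, edgeR adjusted p = 4.29e-06). Nop16, a nucleolar protein, had 462 and 493 CPM in 4C embryos, against 11.6 and 8.14 CPM in 2C embryos. All 3 were low in both 2C libraries. The abundant nucleolar proteins Npm1 and Ncl had counts in every library, Npm1 at 5069 and 3865 CPM in 4C embryos, against 493 and 726 CPM in 2C embryos and Ncl at 816 and 586 CPM in 4C embryos, against 88.3 and 76.3 CPM in 2C embryos. Uncalled were Noc3l (39.5 and 34.6 CPM in 4C embryos, against 24.8 and 21.3 CPM in 2C embryos) and Tex10 (43.9 and 53.2 CPM in 4C embryos, against 21.8 and 19.9 CPM in 2C embryos, adjusted p = 0.0533).

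Promoters of ribosome genes and of genes that fell are shown next, since their content of CG dinucleotides differed. Promoter sequences of RefSeq (GRCm38.p6) were matched by symbol for 12087 of 15733 tested protein-coding genes, and the 250 bases before the first listed start were read. Below are 4 of them, the largest change with a promoter in each of 4 lists, shown 5′ to 3′ on the gene's strand with each CG dinucleotide in capitals, the site of DNA methylation. Rps27 (chr3:90213649-90213898, minus strand) and Ddx49 (chr8:70302472-70302721, minus strand) rose, and Tcl1b2 (chr12:105146769-105147018, plus strand) and Zbed3 (chr13:95323355-95323604, plus strand), described further on, fell.
Rps27: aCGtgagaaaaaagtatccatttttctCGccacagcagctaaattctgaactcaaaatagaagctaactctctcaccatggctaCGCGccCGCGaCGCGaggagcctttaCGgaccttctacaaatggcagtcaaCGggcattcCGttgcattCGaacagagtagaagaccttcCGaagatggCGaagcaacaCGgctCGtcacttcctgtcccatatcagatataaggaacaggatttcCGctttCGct
Ddx49: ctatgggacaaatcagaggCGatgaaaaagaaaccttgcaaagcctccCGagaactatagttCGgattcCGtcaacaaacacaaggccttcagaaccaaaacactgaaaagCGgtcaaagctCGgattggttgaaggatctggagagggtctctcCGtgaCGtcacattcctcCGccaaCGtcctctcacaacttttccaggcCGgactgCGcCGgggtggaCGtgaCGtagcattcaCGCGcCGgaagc
Tcl1b2: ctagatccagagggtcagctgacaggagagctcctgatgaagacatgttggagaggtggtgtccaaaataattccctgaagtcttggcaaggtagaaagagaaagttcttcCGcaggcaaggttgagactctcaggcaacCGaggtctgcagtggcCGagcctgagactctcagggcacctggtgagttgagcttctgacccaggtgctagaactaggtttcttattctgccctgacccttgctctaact
Zbed3: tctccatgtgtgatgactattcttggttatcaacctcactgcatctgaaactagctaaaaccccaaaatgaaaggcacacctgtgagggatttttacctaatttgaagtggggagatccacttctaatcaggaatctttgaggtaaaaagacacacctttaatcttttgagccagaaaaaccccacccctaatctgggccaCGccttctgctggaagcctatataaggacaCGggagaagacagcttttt
The Rps27 and Ddx49 windows hold 18 CG dinucleotides each, and the Tcl1b2 and Zbed3 windows hold 3 and 2.

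Over all matched genes, the median window held 16 CG dinucleotides among genes called higher, 14 among genes called lower and 14 among all tested. The list medians were 17.5 for ribosomal proteins (66 promoters) and 15 for ribosome biogenesis (81), against 1 for the 2-cell-stage genes (25), 1 for the oogenesin and Tcl1 genes (15) and 2 for the subcortical maternal complex and Nlrp genes (18). Of 1344 genes with 0 to 2 CG dinucleotides, 10.9% were called higher and 35.7% lower. Of 2129 genes with 15 to 19, 28.7% were called higher and 27.0% lower, and of 3641 genes with 20 to 98, 24.7% were called higher and 31.8% lower, so that the shares did not run one way over the classes. Levels differ between these classes too: the median gene with 0 to 2 had 0.417 CPM in 4C embryos and 1.10 CPM in 2C embryos, and the median gene with 15 to 19 had 6.14 CPM in 4C embryos and 6.21 CPM in 2C embryos.

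Short sequences were sought on either strand in wider windows, from 250 bases before to 50 bases after the start. Among those sought, the widest gap between genes called higher and lower was that of CCGGAAG, the core of the sites that ETS transcription factors bind. For comparison, GGGCGG was in 60.6% and 57.4% of their windows, CCAAT in 38.1% and 38.6% and AAGATGG in 9.74% and 6.04%. CCGGAAG was found in 25.5% of the windows of genes called higher, 11.3% of those called lower, 15.8% of all tested and 9.12% of all 27025 promoters in the table. It holds a CG dinucleotide itself, so the shares are not independent of those above. By list it was in 37.9% of ribosomal-protein, 42.0% of ribosome-biogenesis and 35.7% of proteasome windows, and in 0% of those of the 2-cell-stage, subcortical maternal complex and oogenesin and Tcl1 lists. The surroundings of 6 matches are shown because they lie in the members with a match that rose most, 3 ribosomal proteins, Rpf2 of ribosome biogenesis and 2 proteasome genes, with the match in capitals (CCGGAAG, or CTTCCGG where it is on the other strand). Rpl38 (chr11:114668549-114668577, plus strand), Rpf2 (chr10:40247042-40247070, minus strand) and Psmd6 (chr14:14120973-14121001, minus strand) have it 20, 20 and 45 bases before the start. Rps18 (chr17:33955723-33955751, minus strand) and Psmc2 (chr5:21785180-21785208, plus strand) have it 75 and 84 bases before the start, and Rps26 (chr10:128626703-128626731, minus strand) has it 214 bases before the start. Ddx49 has one 8 bases before the start, in the window printed above.
Rpl38: gggttaaccgtCCGGAAGcggaagcctcg
Rps26: ttaatcttccgCCGGAAGgttaaatagtt
Rps18: agaagcaatttCCGGAAGtggacctccgg
Rpf2: ggtatttcgcaCTTCCGGcaccgtctctt
Psmd6: cagagacgcgaCCGGAAGtcagactggcg
Psmc2: accagtgagcaCTTCCGGgatggggctcg
Of all matches in windows of genes called higher, 56.0% lay within 100 bases before the start, and 49.8% in genes called lower. The other matches lay further before the start or in the 50 bases after it. A match describes the letters of a window and is neither a bound site nor a cause.

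Translation factors followed in part. Of 57 tested, 43 were higher (75.4%) and 5 lower, with a median of 2.53. The initiation factor eIF3 supplied the largest increases: Eif3m had 624 and 670.4 CPM in 4C embryos, against 6.71 and 9.15 CPM in 2C embryos (6.35 ± 0.32), Eif3g had 184 and 206 CPM in 4C embryos, against 3.33 and 5.11 CPM in 2C embryos, and Eif3e had 641 and 694 CPM in 4C embryos, against 7.49 and 14.2 CPM in 2C embryos. In MII oocytes Eif3e averaged 663 CPM, close to its 4C level, while Eif3m averaged 26.1 CPM and Eif3g 5.71 CPM. The 5 that fell include the egg's own versions of common factors. Eif4e1b, the oocyte form of the cap-binding protein, had 0.661 and 0.263 CPM in 4C embryos, against 59.1 and 100.2 CPM in 2C embryos. Pabpc1l, the oocyte form of the poly(A)-binding protein, had 0.210 and 0 CPM in 4C embryos, against 8.37 and 16.3 CPM in 2C embryos. Eif4enif1, which carries eIF4E and represses stored mRNA, had 15.4 and 18.7 CPM in 4C embryos, against 141 and 181 CPM in 2C embryos. Eef2k, the kinase that inhibits elongation, had 0.270 and 1.87 CPM in 4C embryos, against 59.4 and 71.6 CPM in 2C embryos, and Eif1b, a factor of start-codon choice, had 28.9 and 42.0 CPM in 4C embryos, against 134 and 250.5 CPM in 2C embryos. The 4C values lay below the 2C values in every library for these 5.

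Protein folding and turnover genes rose in most cases. Of 50 proteasome genes tested, 34 were higher (68.0%) and 6 lower (median 2.79). Psmb5, a catalytic subunit of the core, had 57.7 and 68.4 CPM in 4C embryos, against 0.401 and 0.328 CPM in 2C embryos (7.42 ± 1.04), and Psmd14, the deubiquitinase of the lid, had 454 and 409 CPM in 4C embryos, against 6.71 and 10.5 CPM in 2C embryos (5.65 ± 0.41). The 6 lower members were Psmd9, Psmd10, Psmf1, Psme3, Psme4 and Psmb9, of which Psmd9 and Psmd10 are assembly chaperones, Psmf1 an inhibitor and Psme3 and Psme4 activators of the core. Psmd9 had 24.02 and 25.5 CPM in 4C embryos, against 87.8 and 77.6 CPM in 2C embryos, and Psmf1 had 13.3 and 20.3 CPM in 4C embryos, against 42.8 and 95.2 CPM in 2C embryos. Psmb9, an immune-type subunit (0 and 0 CPM in 4C, against 1.603 and 0.246 CPM in 2C), lost its call without 2C replicate 1 or either 4C replicate. Of 46 chaperone genes, 29 were higher (63.0%) and 3 lower (Ahsa1, Hsf1 and Hspa2; median 1.68). The chaperonin subunit Cct4 had 265 and 298 CPM in 4C embryos, against 6.81 and 3.85 CPM in 2C embryos, the constitutive Hsp70 Hspa8 had 768 and 799 CPM in 4C embryos, against 48.7 and 28.2 CPM in 2C embryos, and the cyclophilin Ppia had 2530.1 and 2134 CPM in 4C embryos, against 45.3 and 94.1 CPM in 2C embryos. Ahsa1, which activates the ATPase of Hsp90, had 42.7 and 37.3 CPM in 4C embryos, against 281 and 279 CPM in 2C embryos, and Hsf1, the heat-shock transcription factor, had 6.82 and 9.03 CPM in 4C embryos, against 52.2 and 34.8 CPM in 2C embryos. Hspa2, a germ-cell Hsp70 (5.16 and 12.7 CPM in 4C, against 59.1 and 21.1 CPM in 2C), lost its call without 2C replicate 1 or 4C replicate 1.

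The respiratory chain rose in both of its genomes. Of nuclear genes, 32 of 37 for complex I were higher and 2 lower, 10 of 14 for complexes II and III were higher and 2 lower, 10 of 16 for complex IV were higher and 1 lower, and 15 of 16 for ATP synthase were higher and 0 lower. Their medians were 2.26, 2.16, 2.77 and 3.07. Uqcrq, of complex III, had 549 and 542 CPM in 4C embryos, against 7.16 and 8.33 CPM in 2C embryos (6.14 ± 0.35), Cox7c, of complex IV, had 588 and 574 CPM in 4C embryos, against 6.66 and 4.07 CPM in 2C embryos, and Atp5j, of ATP synthase, had 490.3 and 422 CPM in 4C embryos, against 3.78 and 4.43 CPM in 2C embryos. Ndufs7, an iron-sulfur subunit of complex I, had 41.0 and 44.8 CPM in 4C embryos, against 0.0250 and 0.874 CPM in 2C embryos. The groups stood far apart for all 4. Cox7b2, a germ-cell form of a complex IV subunit, had 23.4 and 14.8 CPM in 4C embryos and 0 counts in 2C embryos, at least 493-fold higher. The 5 lower members were Ndufa10 (8.08 and 5.68 CPM in 4C, against 35.7 and 36.4 CPM in 2C) and Ndufab1 (18.6 and 13.3 CPM in 4C, against 65.1 and 93.1 CPM in 2C) of complex I, the succinate dehydrogenase subunits Sdha (5.97 and 4.79 CPM in 4C, against 32.5 and 44.0 CPM in 2C) and Sdhc (7.48 and 5.25 CPM in 4C, against 19.9 and 47.7 CPM in 2C), and Cox6b2 (36.7 and 35.7 CPM in 4C, against 139.7 and 236 CPM in 2C), a testis-type subunit.

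Of 37 mitochondrial-genome genes, all tested, 27 were higher (73.0%) and 0 lower, with a median of 2.06. The mitochondrial genes mt-Cytb (39498 and 28464 CPM in 4C embryos, against 6351 and 6917 CPM in 2C embryos) and mt-Atp6 (14804 and 10728 CPM in 4C embryos, against 1348 and 1519 CPM in 2C embryos) encode subunits of complex III and of ATP synthase. The ribosomal RNA mt-Rnr2 had 17694 and 12065 CPM in 4C embryos, against 4485 and 1846 CPM in 2C embryos. For mt-Nd1 the values were 13153 and 8990 CPM in 4C embryos, against 3048 and 2252 CPM in 2C embryos, and its call was lost when any 1 of the 4 libraries was left out. Together the mitochondrial rows took 12.1% and 9.07% of all counts in 4C libraries, against 3.31% and 2.52% in 2C libraries. In the further 4C libraries these rows took 8.84% to 17.3%, and in the further 2C libraries 1.47% to 7.74%. The untreated 2C embryos from females aged 12 months had 7.74% and 5.18%, and MII oocytes from females aged 8 weeks 1.69% and 6.13%. The number of calls depends on each library, with 17 of these genes higher without 2C replicate 1, 12 without 2C replicate 2, 18 without 4C replicate 1 and 18 without 4C replicate 2. Gm10925, annotated as an unprocessed pseudogene on chromosome 1, also rose (12521 and 9472 CPM in 4C, against 1066 and 1275 CPM in 2C), and how reads shared by mitochondrial genes and nuclear pseudogenes were assigned is not given. Mitochondrial ribosome genes rose as well, 54 of 79 (68.4%), with 4 lower (Mrpl24, Mrpl48, Dap3 and Mrps27). Mrpl22 had 373 and 457 CPM in 4C embryos, against 3.66 and 6.72 CPM in 2C embryos, and Mrps18c had 201 and 149 CPM in 4C embryos, against 2.38 and 2.65 CPM in 2C embryos. Mrpl24 had 7.21 and 9.58 CPM in 4C embryos, against 51.4 and 59.2 CPM in 2C embryos, Mrpl48 had 39.4 and 35.3 CPM in 4C embryos, against 137 and 311 CPM in 2C embryos, and Dap3, a GTPase of the small subunit, had 7.78 and 13.1 CPM in 4C embryos, against 36.5 and 55.6 CPM in 2C embryos. Mrps27 (6.996 and 4.40 CPM in 4C, against 18.8 and 18.7 CPM in 2C) lost its call without 4C replicate 2.

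Machinery for making and splicing mRNA also leaned upward. Of 41 genes of RNA polymerase II and its general factors, 26 were higher (63.4%) and 6 lower. The shared polymerase subunit Polr2k had 355 and 326 CPM in 4C embryos, against 3.98 and 6.69 CPM in 2C embryos, and Gtf2h5, of the factor TFIIH, had 528 and 525 CPM in 4C embryos, against 13.8 and 14.7 CPM in 2C embryos. The 6 that fell were Polr2c, Gtf2a1, Gtf2a2, Gtf2b, Taf4 and Taf10. Polr2c, another core subunit, had 108 and 108 CPM in 4C embryos, against 972 and 845 CPM in 2C embryos, and Gtf2a1, of TFIIA, had 35.4 and 49.6 CPM in 4C embryos, against 655 and 406 CPM in 2C embryos. Of 47 splicing genes, 30 were higher (63.8%) and 1 was lower, Lsm1 (30.4 and 25.7 CPM in 4C, against 185 and 122.6 CPM in 2C), which acts in mRNA decay. Snrpb, of the Sm ring, had 204 and 240.2 CPM in 4C embryos, against 4.71 and 5.05 CPM in 2C embryos, and Sf3b6, of the U2 particle, had 443 and 367 CPM in 4C embryos, against 13.4 and 16.7 CPM in 2C embryos.

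**Figure D4:**
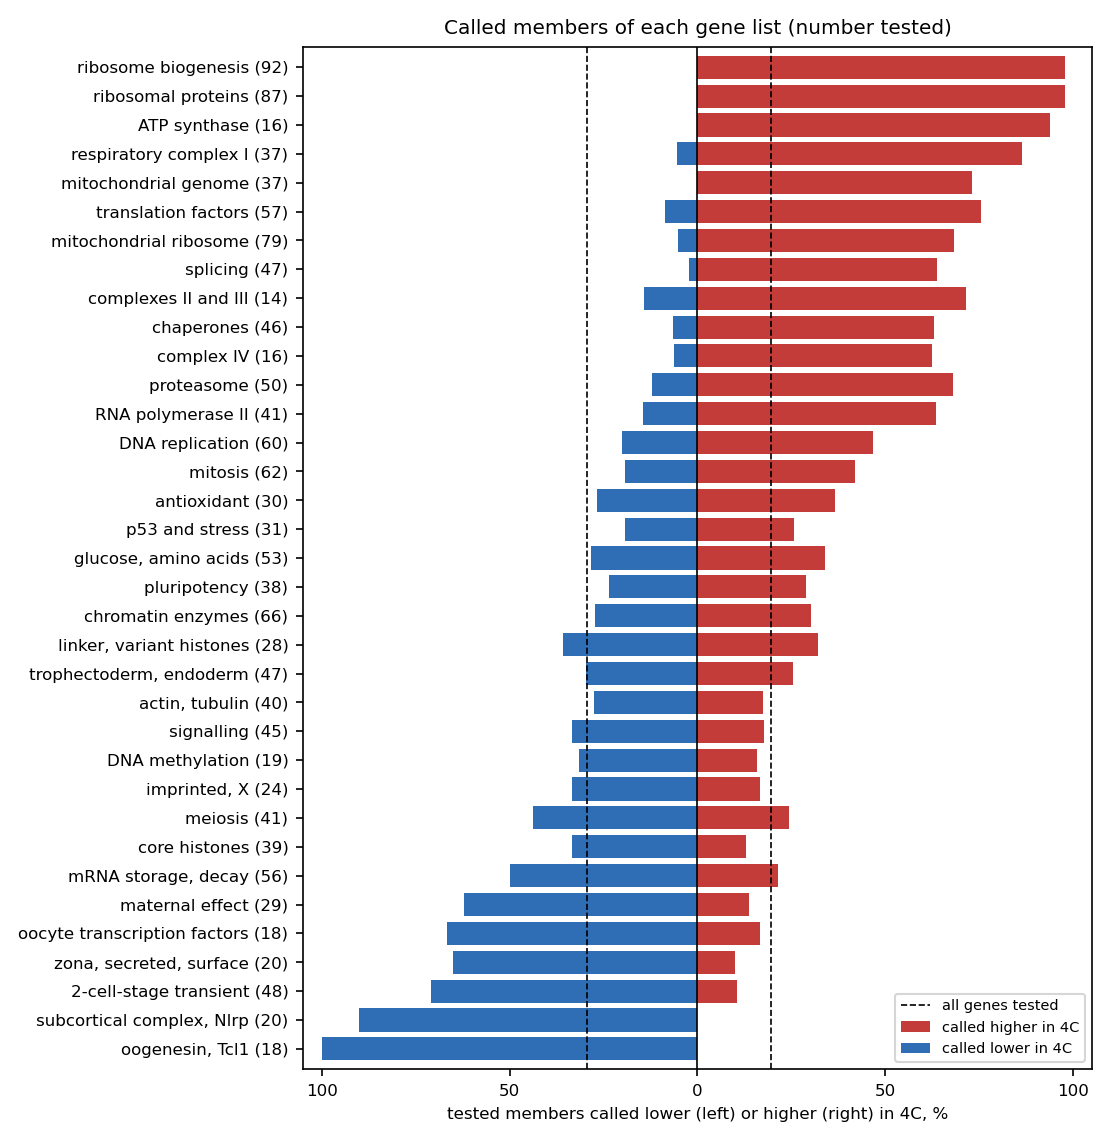
Share of tested members of each of 35 gene lists called higher (red, to the right) or lower (blue, to the left) in 4C embryos, with the share of all tested genes as dashed lines (19.6% higher and 29.4% lower). Ribosome, respiratory-chain and mitochondrial lists stand at the top, and oocyte lists at the foot.

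The transient genes of the 2-cell stage were lower in most cases. Of 48 tested, 34 were lower (70.8%, against 29.4% of all genes) and 5 higher, with a median of -3.44. Zscan4b had 0.360 and 0.164 CPM in 4C embryos, against 35.2 and 21.0 CPM in 2C embryos (-6.71 ± 0.67), Zscan4e had 0.300 and 0.0328 CPM in 4C embryos, against 12.9 and 13.7 CPM in 2C embryos, and Zfp352, a zinc-finger gene driven by a retroviral LTR, had 15.6 and 6.24 CPM in 4C embryos, against 198 and 184 CPM in 2C embryos. Usp17la, a deubiquitinase gene, had 1.95 and 0.0328 CPM in 4C embryos, against 88.5 and 46.1 CPM in 2C embryos. In MII oocytes none of these 4 averaged above 0.109 CPM, but other members are oocyte transcripts too, as Obox5, with 40.5 and 34.5 CPM in 4C embryos, against 4675 and 6439 CPM in 2C embryos and 14307 CPM on average in MII oocytes. Summed, the list took 0.386% and 0.413% of gene counts in 4C embryos, against 1.41% and 1.66% in 2C embryos, and 1.08% and 1.54% in MII oocytes of females aged 8 weeks. Most of the 2C sum was Obox5, with 186669 of 22884496 gene counts in 2C replicate 1 and 235682 of 21643907 in 2C replicate 2. In the 4C replicates Obox5 had 1349 of 27257754 and 1050 of 23231965 gene counts, so the fall of the sum is largely that of Obox5. Zscan4c, at 5.88 and 1.41 CPM in 4C, against 22.1 and 142 CPM in 2C, lost its call without 2C replicate 2 or 4C replicate 2. Among the 5 higher members, Pramel7 had 632 and 681 CPM in 4C embryos, against 2.63 and 3.17 CPM in 2C embryos (7.82 ± 0.71), Eif1a had 216 and 334 CPM in 4C embryos, against 5.86 and 2.98 CPM in 2C embryos, and Obox6 had 1061 and 1047 CPM in 4C embryos, against 28.8 and 18.7 CPM in 2C embryos. Pramel6 had 157 and 139.7 CPM in 4C embryos, against 9.22 and 6.80 CPM in 2C embryos, and Sp110, a nuclear-body gene, had 465 and 389 CPM in 4C embryos, against 174 and 217 CPM in 2C embryos. These families have near-identical members, so values of single members are uncertain.

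Components of the subcortical maternal complex, a structure of the egg's cortex, and the related Nlrp genes were lower almost throughout. With 3 maternal chromatin genes that share the list (Uhrf1, Kdm1b and Dnmt1), 18 of 20 were lower (90.0%) and 0 higher, with a median of -5.52. Zbed3 (chr13:95323612-95337841), a member of the complex, had 8.62 and 5.91 CPM in 4C embryos, against 5253 and 4050.3 CPM in 2C embryos, a log2 fold change of -9.32 ± 0.38 (SE, edgeR adjusted p = 9.35e-07). Nlrp4f had 8.59 and 10.8 CPM in 4C embryos, against 1301 and 1649 CPM in 2C embryos, and Nlrp9a had 0.991 and 2.20 CPM in 4C embryos, against 234 and 405 CPM in 2C embryos. MII oocytes held all 3, Zbed3 at 2668 CPM, Nlrp4f at 1354 CPM and Nlrp9a at 502 CPM on average. Uncalled were the core members Tle6 (3.99 and 3.84 CPM in 4C, against 5.06 and 10.8 CPM in 2C) and Khdc3 (5.62 and 5.05 CPM in 4C, against 6.09 and 3.22 CPM in 2C), which were low at both stages.

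The list of oogenesin and Tcl1 genes also holds members of the Oas1 and Omt2 families, E330034G19Rik and E330017A01Rik. Many of these genes lie in clusters of recent copies. All were lower: 18 of 18, each also when any 1 library was left out, with a median of -6.35. Tcl1b2 had 7.39 and 7.38 CPM in 4C embryos, against 2227 and 1801 CPM in 2C embryos (-8.09 ± 0.64), Oog4 had 1.08 and 1.21 CPM in 4C embryos, against 146 and 412 CPM in 2C embryos, and the oocyte-specific transcript E330034G19Rik had 15.8 and 40.1 CPM in 4C embryos, against 4302 and 5446 CPM in 2C embryos. The groups were far apart for all 3. Summed, the list took 0.282% and 0.407% of gene counts in 4C libraries, against 6.27% and 6.97% in 2C libraries. Copies of a cluster share sequence and are not independent of each other.

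Oocyte transcription factors and secreted or surface proteins of the egg followed the same course. Of 18 factors tested, 12 were lower (66.7%) and 3 higher. Tbpl2, the oocyte's own TATA-binding protein, had 0 counts in 4C embryos, against 21.4 and 25.5 CPM in 2C embryos, at least 497-fold lower. Obox1 had 3.99 and 8.66 CPM in 4C embryos, against 1789 and 2417 CPM in 2C embryos (-8.38 ± 0.50), and Lhx8, needed for early follicles, had 0.360 and 0 CPM in 4C embryos, against 36.8 and 24.97 CPM in 2C embryos. Higher were Yy1 (143 and 131 CPM in 4C, against 8.24 and 7.32 CPM in 2C), Taf4b (114 and 114 CPM in 4C, against 24.99 and 18.7 CPM in 2C) and Hsf2 (25.8 and 16.9 CPM in 4C, against 11.2 and 8.66 CPM in 2C), the last with a call lost without 2C replicate 1, 2C replicate 2 or 4C replicate 1. Of 20 secreted and surface genes, 13 were lower (65.0%) and 2 higher, with a median of -3.71 that is -3.56 with genes at 0 counts set to their bound. Bmp15, an oocyte growth factor, had 4.11 and 10.2 CPM in 4C embryos, against 1753 and 1726 CPM in 2C embryos, and Oosp3, an oocyte-secreted protein, had 32.0 and 12.8 CPM in 4C embryos, against 1235 and 1472 CPM in 2C embryos. The increases were Cd9 (242 and 265 CPM in 4C, against 16.2 and 31.4 CPM in 2C), the tetraspanin of sperm-egg fusion, and Zp3.

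Maternal-effect genes, whose loss in the mother stops the embryo, were lower in most cases. Of 29 tested, 18 were lower (62.1%) and 4 higher. Zar1, which stores maternal mRNA, had 0 counts in 4C embryos, against 8.62 and 15.1 CPM in 2C embryos, at least 249-fold lower, and the phospholipase Pla2g4c had 4.44 and 5.74 CPM in 4C embryos, against 1047 and 984 CPM in 2C embryos. The 4 that rose encode chromatin and repair proteins. Dppa3, which guards maternal DNA methylation, had 12952 and 11463 CPM in 4C embryos, against 3474 and 5841 CPM in 2C embryos (1.39 ± 0.29). Trim28, the co-repressor of zinc-finger proteins, had 133 and 118 CPM in 4C embryos, against 21.8 and 7.90 CPM in 2C embryos, and the remodeller Smarca4 had 57.5 and 71.8 CPM in 4C embryos, against 8.82 and 14.3 CPM in 2C embryos. Pms2, of mismatch repair, had 14.8 and 18.97 CPM in 4C embryos, against 6.59 and 3.88 CPM in 2C embryos and lost its call without 2C replicate 2 or 4C replicate 2.

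Storage and decay of mRNA moved in both directions. Of 56 tested, 28 were lower (50%) and 12 higher (21.4%). Besides Btg4, Zar1 and Eif4e1b, the lower members include Ybx2, the germ-cell Y-box protein that packages stored mRNA, at 1.53 and 0.0985 CPM in 4C embryos, against 26.6 and 42.1 CPM in 2C embryos. Higher were Dis3, a nuclease of the exosome, at 74.5 and 69.0 CPM in 4C embryos, against 7.69 and 4.62 CPM in 2C embryos, the poly(A) polymerase Papola at 369 and 384 CPM in 4C embryos, against 26 and 39.8 CPM in 2C embryos, and Cpeb2, which binds cytoplasmic polyadenylation elements, at 45.8 and 35.3 CPM in 4C embryos, against 6.39 and 1.83 CPM in 2C embryos. Both 4C libraries lay above both 2C libraries for these 3. The share called higher is close to the 19.6% of all genes. Of 41 meiotic regulators, 18 were lower (43.9%) and 10 higher (24.4%). Wee2, the oocyte kinase that holds meiosis, had 4.26 and 2.43 CPM in 4C embryos, against 459 and 411 CPM in 2C embryos, and Dazl, a germ-cell RNA-binding protein, had 13.1 and 11.2 CPM in 4C embryos, against 478 and 452 CPM in 2C embryos. Pde3a, the oocyte's phosphodiesterase, had 1.11 and 0.131 CPM in 4C embryos, against 22.1 and 19.3 CPM in 2C embryos. Aurkc, the germ-cell Aurora kinase, went the other way at 88.2 and 118 CPM in 4C embryos, against 8.27 and 15.3 CPM in 2C embryos, and so did the mitotic kinase Cdk1 at 318 and 267 CPM in 4C embryos, against 48.8 and 39.5 CPM in 2C embryos. The number of higher members rests on single libraries, with 6 called without 2C replicate 2 and 6 without 4C replicate 1.

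Cell division genes were called in both directions, more often higher than lower. Of 62 mitotic genes, 26 were higher (41.9%) and 12 lower (19.4%). The spindle motor Kif11 had 181 and 165 CPM in 4C embryos, against 26.4 and 9.56 CPM in 2C embryos, Anapc7, of the anaphase-promoting complex, had 90.1 and 95.0 CPM in 4C embryos, against 9.49 and 10.9 CPM in 2C embryos, and the kinetochore protein Ndc80 had 84.1 and 83.5 CPM in 4C embryos, against 8.49 and 14.9 CPM in 2C embryos. Its direct partner in the same complex, Nuf2, was lower, at 31.0 and 31.9 CPM in 4C embryos, against 278 and 334 CPM in 2C embryos, as was the kinetochore protein Cenpn, at 45.7 and 48.6 CPM in 4C embryos, against 608 and 624 CPM in 2C embryos. Without 2C replicate 2, 16 mitotic genes were higher, and without 4C replicate 2, 7 were lower. Of 60 replication genes, 28 were higher (46.7%) and 12 lower (20%). Gins1, of the replicative helicase, had 183 and 191 CPM in 4C embryos, against 3.91 and 3.55 CPM in 2C embryos (5.65 ± 0.58), Mcm3, of the same helicase, had 44.1 and 44.3 CPM in 4C embryos, against 3.38 and 4.02 CPM in 2C embryos, and Tyms, which makes thymidylate, had 191 and 179 CPM in 4C embryos, against 6.66 and 11.5 CPM in 2C embryos. Lower were Orc5, of the origin recognition complex (13.2 and 7.16 CPM in 4C, against 170.4 and 192 CPM in 2C), and Dut, which clears dUTP (79.5 and 57.8 CPM in 4C, against 417 and 432 CPM in 2C).

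Core histone genes were called lower at a share near that of all genes. Replication-dependent histone mRNAs lack a poly(A) tail, and the labels name poly(A) RNA. Of 39 core histone genes tested, 13 were lower (33.3%, against 29.4% of all genes) and 5 higher (12.8%, against 19.6%), and 22 of the 61 in the list did not pass the filter. Without 4C replicate 2, 6 were lower, and with a filter of 5 CPM, 5 were. The higher members numbered 2 to 4 when 1 library was left out. Hist1h4c had 0.601 and 0.361 CPM in 4C embryos, against 12.3 and 14.2 CPM in 2C embryos. Hist1h2ao had 179.8 and 24.1 CPM in 4C embryos, against 2.98 and 2.60 CPM in 2C embryos and Hist1h2ap 128 and 12.2 CPM in 4C embryos, against 0.726 and 2.65 CPM in 2C embryos, so that the 4C replicates differed widely, and Hist1h2ap lost its call without 4C replicate 1 or 2C replicate 1. The other 3 called higher were Hist1h4d (34.3 and 40.9 CPM in 4C, against 6.74 and 12.8 CPM in 2C), Hist1h4i (5.92 and 11.1 CPM in 4C, against 1.40 and 1.91 CPM in 2C), which lost its call without 2C replicate 1, 2C replicate 2 or 4C replicate 2, and Hist1h2ae (5.04 and 0.886 CPM in 4C, against 0.200 and 0.191 CPM in 2C), which lost it without 2C replicate 1, 2C replicate 2 or 4C replicate 1. Of 28 linker histones, variants and chaperones, 9 were higher (32.1%) and 10 lower (35.7%). The chaperones Asf1b (24.2 and 28.2 CPM in 4C, against 301 and 248.0 CPM in 2C) and Npm2 (41.0 and 32.0 CPM in 4C, against 234 and 479 CPM in 2C), the egg's nucleoplasmin, were lower, and Nasp, which carries H3 and H4, was higher at 745 and 546 CPM in 4C, against 62.9 and 85.8 CPM in 2C.

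Genes of DNA methylation were called about as often as genes at large: 6 of 19 were lower (31.6%) and 3 higher (15.8%), near the background shares. Uhrf1, which brings the maintenance methyltransferase to replicated DNA, had 3.69 and 3.87 CPM in 4C embryos, against 108 and 172 CPM in 2C embryos, and Tet3, the oocyte's dioxygenase of methylcytosine, had 3.45 and 4.63 CPM in 4C embryos, against 167 and 104 CPM in 2C embryos. Zfp57, which keeps imprints methylated, had 7.51 and 9.68 CPM in 4C embryos, against 220.1 and 276 CPM in 2C embryos. Tet1, a paralog of Tet3, was higher at 52.3 and 49.7 CPM in 4C, against 9.84 and 7.90 CPM in 2C. Also higher were Dppa3, above, and Gadd45b (26.9 and 41.3 CPM in 4C, against 10.8 and 10.7 CPM in 2C), which lost its call without 2C replicate 1, 2C replicate 2 or 4C replicate 2. Dnmt3b was lower at 3.903 and 5.38 CPM in 4C, against 8.54 and 11.4 CPM in 2C, a call lost when any 1 library was left out.

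Of 66 chromatin genes, 20 were higher (30.3%) and 18 lower (27.3%). The heterochromatin protein Cbx3 had 635 and 673 CPM in 4C embryos, against 21.9 and 14.3 CPM in 2C embryos, the arginine methyltransferase Prmt5 had 62.2 and 57.8 CPM in 4C embryos, against 2.96 and 2.57 CPM in 2C embryos, and Kdm4c, a demethylase of H3 lysine 9, had 53.7 and 67.7 CPM in 4C embryos, against 4.08 and 5.38 CPM in 2C embryos. Of the demethylases of H3 lysine 4, Kdm5b was higher at 217 and 172 CPM in 4C, against 44.8 and 36.2 CPM in 2C and Kdm5a at 77.3 and 91.8 CPM in 4C, against 11.5 and 11.04 CPM in 2C, Kdm1b was lower at 24.8 and 31.4 CPM in 4C, against 93.3 and 76.2 CPM in 2C, and Kdm1a, Kdm5c and Kdm5d were not called. Kmt2d, a methyltransferase of the same lysine, was lower at 4.32 and 3.45 CPM in 4C, against 91.8 and 53.3 CPM in 2C. The remodeller pair split: Smarca2 was lower at 9.22 and 8.93 CPM in 4C, against 222 and 426 CPM in 2C, and its paralog Smarca4, above, was higher. Both 4C replicates lay on the same side of both 2C replicates for each gene given with values here.

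Pluripotency genes were split. Of 38 tested, 11 were higher (29.0%) and 9 lower (23.7%), with a median of -0.21. Beside Dppa5a, the F-box gene Fbxo15 had 1788 and 1621 CPM in 4C embryos, against 45.1 and 58.9 CPM in 2C embryos (5.04 ± 0.36), Dppa4 had 607 and 578 CPM in 4C embryos, against 16.3 and 13.1 CPM in 2C embryos, and the Krüppel-like factor Klf5 had 101 and 80.5 CPM in 4C embryos, against 8.72 and 8.39 CPM in 2C embryos. Nanog was low but higher in 4C embryos, at 10.2 and 4.37 CPM in 4C, against 0.0501 and 0.710 CPM in 2C, and lost its call without 2C replicate 1 or 4C replicate 1. Pou5f1, which encodes Oct4, was lower, at 1.14 and 0.755 CPM in 4C embryos, against 17.9 and 26.8 CPM in 2C embryos (-4.55 ± 0.54, edgeR adjusted p = 8.56e-05). Sox2 was low and not called (0.210 and 0.0328 CPM in 4C embryos, against 1.30 and 0.519 CPM in 2C embryos). Klf17 did not differ beyond its spread, at 134 and 193 CPM in 4C embryos, against 134 and 152 CPM in 2C embryos, a log2 fold change of 0.19 ± 0.26 (SE). Myc was not called (6.55 and 3.74 CPM in 4C, against 8.99 and 6.75 CPM in 2C), and Mycn was lower at 0.270 and 0.0656 CPM in 4C, against 12.2 and 7.596 CPM in 2C.

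Regulators of the first lineages showed no common direction: of 47 tested genes of trophectoderm, primitive endoderm and epithelium, 12 were higher (25.5%) and 14 lower (29.8%). Tead4, the transcription factor that starts the trophectoderm program, had 28.8 and 28.4 CPM in 4C embryos, against 0.476 and 0.246 CPM in 2C embryos (6.29 ± 0.73), and Tfap2c had 64.7 and 41.6 CPM in 4C embryos, against 15.2 and 11.6 CPM in 2C embryos, a call lost without 2C replicate 2. Sox21, a factor that varies between blastomeres in the 4-cell embryo, had 18.2 and 12.4 CPM in 4C embryos, against 0.300 and 0.137 CPM in 2C embryos. Gata3, a later trophectoderm factor, was lower at 2.10 and 0.722 CPM in 4C, against 27.9 and 36.6 CPM in 2C and averaged 167 CPM in MII oocytes. The polarity genes Pard3 (10.3 and 13.7 CPM in 4C, against 141 and 92.1 CPM in 2C) and Prkci (8.56 and 8.01 CPM in 4C, against 66.6 and 63.1 CPM in 2C) were lower, and Pard6b (0 and 1.71 CPM in 4C, against 14.7 and 17.98 CPM in 2C) too, though not in a fit of the 4 libraries alone. The keratin Krt8 (0.0300 and 0.591 CPM in 4C, against 3.88 and 0.519 CPM in 2C) and the cadherin Cdh1 (12.7 and 12.4 CPM in 4C, against 9.97 and 4.70 CPM in 2C) were not called. Without 2C replicate 1, 9 members were lower.

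Among 45 signalling genes, 8 were higher (17.8%) and 15 lower (33.3%), near the background. Fgf4, the growth factor by which inner cell mass signals, had 32.1 and 28.0 CPM in 4C embryos, against 1.35 and 0.246 CPM in 2C embryos. Spry4, a feedback inhibitor of this pathway, had 11.9 and 7.55 CPM in 4C embryos, against 472 and 300.1 CPM in 2C embryos, and Axin2, the feedback inhibitor of Wnt signalling, had 0.751 and 0.656 CPM in 4C embryos, against 14.7 and 17.9 CPM in 2C embryos. Lif (0.390 and 1.51 CPM in 4C embryos) and Gdf3 (0.630 and 1.02 CPM in 4C embryos) were at 0 counts in 2C embryos, and both lost their calls when any 1 library was left out. The number of higher members was 2 to 6 when 1 library was left out.

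Metabolic genes were mixed, with 18 of 53 glucose and amino-acid genes higher (34.0%) and 15 lower (28.3%). Psat1, of serine synthesis, had 349 and 334 CPM in 4C embryos, against 9.07 and 9.37 CPM in 2C embryos, Mpc2, of the mitochondrial pyruvate carrier, had 349.9 and 319 CPM in 4C embryos, against 15.4 and 19.1 CPM in 2C embryos, and Mat2a, which makes S-adenosylmethionine, had 431 and 452 CPM in 4C embryos, against 30.2 and 15.9 CPM in 2C embryos. Ldhb, the lactate dehydrogenase of eggs, was lower at 32.3 and 28.2 CPM in 4C, against 1172 and 1607 CPM in 2C, as were the cystine carrier Slc7a11 (1.83 and 1.64 CPM in 4C, against 59.7 and 59.4 CPM in 2C) and the glucose carrier Slc2a1 (0 and 0.821 CPM in 4C, against 14.8 and 11.1 CPM in 2C). Of 30 antioxidant genes, 11 were higher (36.7%) and 8 lower (26.7%). The metallothioneins led, Mt1 at 2352 and 1901 CPM in 4C embryos, against 45.3 and 37.3 CPM in 2C embryos (5.69 ± 0.78) and Mt2 at 736 and 609 CPM in 4C embryos, against 19.96 and 16.2 CPM in 2C embryos. Prdx2, a peroxiredoxin, was lower at 69.6 and 103 CPM in 4C, against 1579.9 and 1552 CPM in 2C, and Prdx4, of the endoplasmic reticulum, was higher at 45.3 and 55.5 CPM in 4C, against 5.21 and 7.02 CPM in 2C. Of 40 cytoskeletal genes, 7 were higher (17.5%) and 11 lower (27.5%), or 7 lower without 4C replicate 1. Actb, often used as a reference gene, was lower at 100.3 and 156 CPM in 4C, against 318 and 469 CPM in 2C, a call lost without 4C replicate 1, and the tubulin Tubb2a was lower at 0.0300 and 0.230 CPM in 4C, against 26 and 35.7 CPM in 2C.

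Of 31 genes of p53 and stress responses, 8 were higher (25.8%) and 6 lower (19.4%), and 4 to 7 were higher when 1 library was left out. Chek2, a checkpoint kinase, was higher at 54.9 and 71.2 CPM in 4C, against 6.89 and 8.25 CPM in 2C, while Chek1 was lower at 51.3 and 36.99 CPM in 4C, against 537 and 548 CPM in 2C. Mdm4, an inhibitor of p53, had 182 and 317 CPM in 4C embryos, against 2853 and 2378 CPM in 2C embryos. Of 24 imprinted and X-chromosome genes, 4 were higher (16.7%) and 8 lower (33.3%), near the background. Xist, the RNA that coats the inactive X chromosome, had 61.4 and 61.2 CPM in 4C embryos, against 2.03 and 7.90 CPM in 2C embryos (3.63 ± 0.67), and its antisense partner Tsix had 39.5 and 34.3 CPM in 4C embryos, against 1.28 and 2.65 CPM in 2C embryos. The use of strand in counting is not given, and reads of this overlapping pair cannot be told apart. Igf2r, expressed from the maternal allele in later embryos, was higher at 88.0 and 82.2 CPM in 4C, against 5.68 and 4.70 CPM in 2C, and Impact, from the paternal allele, at 64.7 and 81.3 CPM in 4C, against 15.4 and 13.7 CPM in 2C. Mest was lower at 0.270 and 3.12 CPM in 4C, against 28.1 and 27.4 CPM in 2C.

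Repeat subfamilies took 17.2% and 20.1% of all counts in 4C libraries, against 19.9% and 20.8% in 2C libraries. A row is a subfamily summed over the genome, not a locus. The groups did not overlap for 773 of the 1006 subfamilies tested. Of 1006 tested, 272 were called (27%), 74 higher (7.36%) and 198 lower (19.7%), around a median of -0.56. DESeq2 size factors shifted the scale and gave 80 higher and 134 lower. The calls rest on single libraries more than those of genes, and 118 kept theirs when any 1 library was left out, 43 higher and 75 lower. Without 2C replicate 2 there were 164 calls, without 4C replicate 1 there were 177 and without 4C replicate 2 there were 145.

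LTR elements, the remains of retroviruses, were called in both directions at shares near those of all subfamilies. Of 604 LTR subfamilies, 58 were higher (9.60%, against 7.36% of all subfamilies) and 111 lower (18.4%, against 19.7%). MT2C_Mm, an old LTR of the ERVL family, had 23064 and 21563 CPM in 4C embryos, against 787 and 595 CPM in 2C embryos, a log2 fold change of 5.01 ± 0.26 (SE). RLTR45-int, the internal part of an ERVK element, had 1862 and 1999.7 CPM in 4C embryos, against 32.98 and 40.1 CPM in 2C embryos (5.72 ± 0.30), and ERVB4_2-I_MM-int had 166 and 197 CPM in 4C embryos, against 9.19 and 7.54 CPM in 2C embryos. None of the 2C libraries came near the 4C libraries in these 3. In the ERVL-MaLR family, whose MT elements drive many oocyte transcripts, 10 of 99 were higher (10.1%) and 28 lower (28.3%). Of its subfamilies, ORR1A1 was higher at 1149.7 and 1328 CPM in 4C embryos, against 224 and 218 CPM in 2C embryos and ORR1A0 at 1116 and 1229.6 CPM in 4C embryos, against 342 and 225 CPM in 2C embryos. MTA_Mm-int fell to 3512 and 4154 CPM in 4C embryos, against 40960.3 and 48297 CPM in 2C embryos (-3.54 ± 0.25) and MTA_Mm to 1526 and 1699 CPM in 4C embryos, against 10295 and 12392 CPM in 2C embryos. HERVL40-int, an ERVL element with 434 CPM in MII oocytes on average, had 2.28 and 1.38 CPM in 4C embryos, against 177 and 286 CPM in 2C embryos.

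MERVL, the retrovirus of the 2-cell stage, was still abundant in 4C embryos. MERVL-int had 5989 and 5588 CPM in 4C embryos, against 17428 and 10719.7 CPM in 2C embryos (-1.28 ± 0.34), a call lost without 2C replicate 1 or either 4C replicate, and its LTR MT2_Mm had 6961 and 5448 CPM in 4C embryos, against 7546 and 7121 CPM in 2C embryos and was not called (-0.24 ± 0.22). In MII oocytes MERVL-int averaged 46.1 CPM and MT2_Mm 136 CPM. Of 276 ERVK subfamilies, 30 were higher (10.9%) and 48 lower (17.4%), near the 7.36% and 19.7% of all subfamilies. The intracisternal A particle IAPEz-int had 1059.8 and 679 CPM in 4C embryos, against 187 and 202 CPM in 2C embryos, and its LTR IAPLTR1_Mm had 306 and 156 CPM in 4C embryos, against 40.6 and 40.5 CPM in 2C embryos. The 4C replicates differed by more than the 2C replicates for both elements, and the groups did not overlap.

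**Figure D5:**
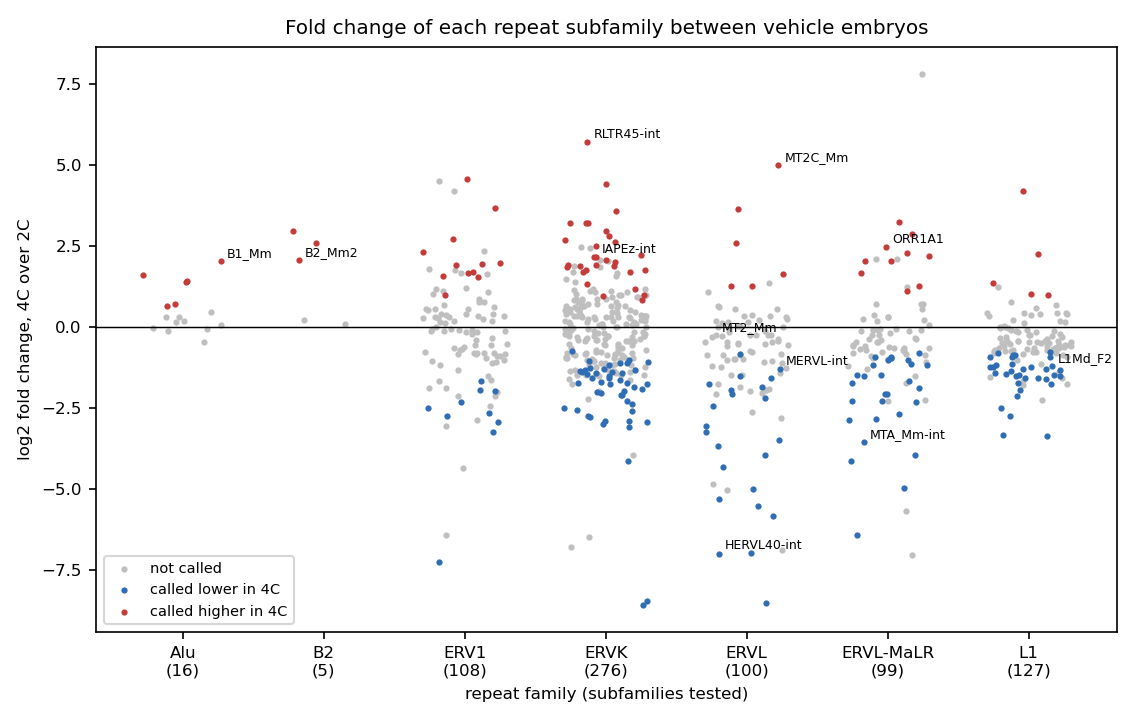
Log2 fold change (4C over 2C) of each tested subfamily in 7 repeat families, coloured by the call. The SINE families Alu and B2 have calls in the higher direction alone, L1 has 34 of its 39 calls in the lower direction, and the LTR families spread both ways, with MT2C_Mm and RLTR45-int highest among those called.

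Short interspersed elements (SINEs), which RNA polymerase III transcribes and which also lie inside many mRNAs, were higher in 9 of 35 subfamilies (25.7%, against 7.36% of all subfamilies) and lower in 2. B2_Mm2 had 15263 and 16772 CPM in 4C embryos, against 3064 and 4591 CPM in 2C embryos (2.06 ± 0.32), and B1_Mm had 2992 and 2589.5 CPM in 4C embryos, against 618 and 738 CPM in 2C embryos (2.04 ± 0.24). The B2 family took 6.00% and 9.11% of all counts in 4C libraries, against 1.74% and 2.43% in 2C libraries, though the further 2C libraries ranged from 0.646% to 7.35%. Of 127 L1 subfamilies, 34 were lower (26.8%) and 5 higher (3.94%). The young L1Md_F2 had 328 and 252 CPM in 4C embryos, against 634 and 706 CPM in 2C embryos, a call lost without 4C replicate 2, while L1Md_T (278 and 169 CPM in 4C embryos, against 342 and 351 CPM in 2C embryos) and L1Md_A (261 and 173 CPM in 4C embryos, against 227 and 231 CPM in 2C embryos) were not called. DNA transposons were lower in 30 of 175 cases (17.1%, against 19.7% of all subfamilies) and higher in 2 (1.14%, against 7.36%). The satellite GSAT_MM was not called, at 2.10 and 2.66 CPM in 4C embryos, against 21.1 and 4.32 CPM in 2C embryos.

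The calls also differed by the level of a gene in MII oocytes, which are no part of the contrast. Among 1588 genes with at least 100 CPM in MII oocytes, 61.9% were lower in 4C embryos than in 2C embryos and 20.1% higher. Among 10929 genes under 1 CPM there, 12.9% were lower and 17.1% higher. The classes between, 1 to 10 CPM and 10 to 100 CPM, had 36.1% and 49.3% lower. The share called higher stayed between 17.1% and 23.3% over the 4 classes. Low genes have less power to be called, so these shares are not corrected for level. The classes were not selected alike either, since the low-count filter was shared with the oocyte libraries. Genes high in MII oocytes passed it at any embryo level, and genes without counts there passed it only through embryo libraries. The part of this selection in the shares was not tested.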

How the data were processed

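RNA was sequenced from mouse oocytes and embryos by Smart-seq2, a low-input method for poly(A) RNA, per the labels' protocols. The authors deposited raw read counts for each gene and each repeat subfamily, 1 table per library, and per the submitters' processing notes cutadapt 1.16, STAR and build mm10 were used. Which tool counted the reads, whether strand was used and how a read with several positions was treated is not given in the sources used here. Gene symbols, biotypes and exon lengths came from GENCODE vM21, which matched 54587 of 55335 gene IDs with their version.

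Counts of 10 libraries (2 each of 4C DMSO, 2C DMSO, 2C from females aged 12 months, MII from females aged 8 weeks and MII from females aged 12 months) were fitted together in edgeR 4.0.16 under R 4.3.3. Rows passed filterByExpr with a minimum count of 10 and a minimum total of 15, TMM factors were computed from gene and repeat rows in 1 table, and 4C DMSO was compared with 2C DMSO by the quasi-likelihood F-test with 5 residual degrees of freedom. Each SE given was derived from the test, as the absolute log2 fold change divided by the square root of the F statistic. Benjamini-Hochberg adjustment ran over all tested genes and, separately, over all tested repeats, at a threshold of 0.05. The fit was tested on simulated data with known changes. Replicates differed by more than sampling noise, and same-numbered libraries did not deviate together (correlation -0.0086). The counts were 27332143 to 32925454 per library, and TMM factors were 1.01 and 1.05 for 4C DMSO, against 1.40 and 1.34 for 2C DMSO.

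The members, gene lists and tests were chosen with earlier results of these data known. Genes are named by rule: the 6 largest changes per direction with at least 50 CPM, the 6 largest gains and losses in CPM, up to 4 called members per list with at least 10 CPM in the direction of most calls and 3 in the other, a set of index genes, and every member of a count of 5 or fewer. Gene symbols given without values, and the uncalled members of the ribosomal, biogenesis and subcortical lists, were named after their values were seen. Alternatives were DESeq2 1.42.0 size factors and its Wald test, other filters, the 4 libraries alone, a term for replicate number (replicate block), library sizes taken from the gene rows, and leaving out each library. Some items are not reported here.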

Additional observations from a re-analysis of the deposited data

How the results depend on the processing

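Genes called numbered 8641 to 11881 under the alternatives, and 8884 to 9340 when 1 library was left out, against 11237. Of 3271 values of named genes and subfamilies under alternatives, 3149 kept their call and direction, 104 lost the call, 8 gained it and 10 reversed. The median of all genes moved by 0.21 with DESeq2 size factors, by -0.16 with library sizes from genes only and by 0.42 without a low-count filter. Repeat calls were less stable. Leaving out 1 library gave 145 to 233 called subfamilies (272 with all), 49 to 56 higher (74) and 90 to 183 lower (198), and the 4 libraries alone gave 130 lower. The replicate block gave 10690 genes (4234 higher, 6456 lower) and 238 subfamilies (69 higher, 169 lower), and with it Psmb9, Hist1h2ae, Lif, Gdf3, Gja1 and Dnmt3b lost their calls and 5 signalling genes were higher. The replicate numbers do not pair the libraries. The reversed values all belong to rows that were not called. Klf17 was at -0.088 without 4C replicate 2 (up to 0.44 when 1 library was left out). ID_B1 was at 0.21 with DESeq2 size factors and with the Wald test, 0.048 with a filter of 5 CPM and 0.014 without 4C replicate 2 (down to -0.11 when 1 library was left out). L1Md_A was at 0.13 with DESeq2 size factors and with the Wald test and at 0.19 without 4C replicate 2 (down to -0.40 when 1 library was left out). L1Md_Gf was at -0.15 without 2C replicate 2 and -0.48 without 4C replicate 1 (up to 0.68 when 1 library was left out). The causes were not tested. As a share of gene counts, repeats took 23.0% in 4C and 25.6% in 2C libraries on average, and mitochondrial rows 12.96% and 3.66%. With 2 libraries a group, an uncalled gene is not shown to be equal.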

Other observations

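Gene classes outside the lists differed in their calls. Of 1753 long intergenic RNAs tested, 650 were lower in 4C embryos (37.1%) and 161 higher (9.18%), against 30.8% lower and 22% higher of protein-coding genes. Their median log2 fold change was -3.45, or -2.32 with genes at 0 counts set to their bound. Antisense RNAs were lower in 377 of 1278 cases (29.5%) and higher in 154 (12.1%). Unprocessed pseudogenes, copies made by duplication, were lower in 110 of 306 cases (36.0%) and higher in 38 (12.4%). Processed pseudogenes, copies of mRNAs, went the other way, with 412 of 1699 higher (24.3%), 283 lower (16.7%) and a median of 0.74. Many processed pseudogenes resemble ribosomal-protein mRNAs, and reads that fit both cannot be told apart in these counts. The low-count filter ran over 10 libraries, 2 of them 4C, so genes of low level could enter through oocytes or 2C embryos more readily. The median of all genes, -0.57, was -0.39 with the 4 libraries alone and -0.15 without the filter. The part of the filter in the shares and medians of these classes was not tested.

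Protein-coding genes called higher had a median of 3708 exonic bases, those called lower 4586 bases and all those tested 4125 bases. In 30.3% of 66 ribosomal-protein promoters and 6.10% of all 12087, a C within 3 bases of the annotated start was followed by a run of at least 5 bases of C and T, the form of start site known for genes of the translation machinery.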
